A study of Mus musculus with 9 samples.

Results

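The mesothelial and epicardial marker genes are 10 genes, Upk1b, Upk3b, Msln, Krt8, Krt18, Krt19, Bnc1, Wt1, Lrrn4 and Gpm6a. They were taken as markers of the cell sheet that covers the heart. The 10 genes and the gene lists further below were chosen with earlier results of these data known. Counts of them past a threshold are therefore not independent support. All 17 probe sets annotated to a single one of the 10 genes were used, of 34945 probe sets with 1 gene (18193 genes). Upk1b had 4 probe sets, Krt8 had 3, Upk3b and Gpm6a had 2 each, and each of the other 6 genes had 1. RNA was measured on 9 Affymetrix arrays in 3 groups of 3, all from adult mice of the C57BL/6 background at 2 months of age that carried the conditional COUP-TFIIflox/flox alleles. The mutant right atria were of the genotype Myh6-cre; COUP-TFIIflox/flox, the control right atria and the control ventricles of COUP-TFIIflox/flox without Cre. The Myh6 promoter drives the recombinase in cardiomyocytes. Cre itself and the loss of COUP-TFII (Nr2f2) cannot be told apart in this design. The labels call the replicates biological and do not say whether an array holds tissue of 1 animal or of several.

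The mesothelium of the heart, called the epicardium where it lies on the muscle, is a single layer of flat epithelial cells. It carries uroplakins and mesothelin on its surface, simple-epithelial keratins in its cytoskeleton, and transcription factors such as WT1 and basonuclin 1. During development it gives rise to fibroblasts and mural cells of the coronary vessels. In a bulk sample of heart wall its RNA is a small part of the total, and fewer mesothelial cells and less RNA per cell cannot be told apart.

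The 10 genes lie on 8 chromosomes, and only Krt8 and Krt18 are direct neighbours among protein-coding genes. RefSeq promoter entries (build GRCm38.p6, 250 bases before to 50 after a gene's start) matched Upk3b, Krt8, Krt18, Bnc1, Lrrn4 and, with 2 entries, Gpm6a. The 250 bases before the start are shown for 5 of them, 5' to 3' on the gene's own strand. The first 4 hold the half-site AGGTCA, which nuclear receptors of the COUP-TF kind recognise, and Bnc1, the member with the largest fall in the mutant atria, does not. Capitals mark the half-site AGGTCA and the motif GGAATG of TEAD factors, on either strand (CATTCC is GGAATG read on the other strand).
Upk3b (chr5:136038246-136038495, plus strand): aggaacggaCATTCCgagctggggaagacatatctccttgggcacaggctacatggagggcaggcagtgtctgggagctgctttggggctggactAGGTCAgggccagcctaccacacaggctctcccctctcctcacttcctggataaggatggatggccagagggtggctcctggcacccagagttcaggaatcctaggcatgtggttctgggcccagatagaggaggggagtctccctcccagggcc
Krt8 (chr15:102004343-102004592, minus strand): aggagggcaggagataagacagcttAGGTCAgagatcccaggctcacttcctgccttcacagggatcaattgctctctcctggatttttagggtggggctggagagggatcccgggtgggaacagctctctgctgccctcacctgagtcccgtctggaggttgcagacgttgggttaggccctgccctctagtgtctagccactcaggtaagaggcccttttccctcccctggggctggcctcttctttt
Krt18 (chr15:102027966-102028215, plus strand): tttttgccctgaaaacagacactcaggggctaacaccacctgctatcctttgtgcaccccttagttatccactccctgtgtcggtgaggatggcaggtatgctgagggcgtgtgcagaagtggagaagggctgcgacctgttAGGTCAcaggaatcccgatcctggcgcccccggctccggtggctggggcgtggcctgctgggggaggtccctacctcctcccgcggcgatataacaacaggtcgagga
Lrrn4 (chr2:132880863-132881112, minus strand): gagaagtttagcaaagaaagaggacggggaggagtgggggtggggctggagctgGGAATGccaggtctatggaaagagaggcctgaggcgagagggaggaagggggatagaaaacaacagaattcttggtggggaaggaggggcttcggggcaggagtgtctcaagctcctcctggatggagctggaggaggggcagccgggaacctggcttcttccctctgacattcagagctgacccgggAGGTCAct
Bnc1 (chr7:81992300-81992549, minus strand): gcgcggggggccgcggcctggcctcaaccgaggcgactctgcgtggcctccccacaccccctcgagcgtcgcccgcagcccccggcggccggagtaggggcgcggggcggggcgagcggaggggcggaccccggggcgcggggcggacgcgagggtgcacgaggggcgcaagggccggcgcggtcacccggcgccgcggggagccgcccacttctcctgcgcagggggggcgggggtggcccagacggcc
On either strand of the 300-base window, AGGTCA was found in 4 of the 7 member entries and in 16.3% of 32851 entries in the table. GGAATG was found in 3 of 7 and in 14.7% of all, TATAAA in 2 of 7 and in 13.6%. The direct repeat of AGGTCA with 1 base between (0.0396% of all entries), GCGTGGG of WT1 and EGR factors (5.04%) and TGANTCA of AP-1 (7.81%) were not found in a member's window. These are descriptions of sequence, and binding was not measured.

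Levels are given as log2 of the deposited intensity, and differences between groups as log2 ratios ± SE from a limma fit of all 9 arrays (3 per group), with p-values adjusted by the Benjamini-Hochberg method over the 34945 probe sets and a threshold of 0.05. A level says nothing about the amount of one gene's RNA against another's, because probe sets differ in brightness. Array medians lay between 80.9 and 83.4 on the linear scale. The targeted gene Nr2f2 gave 6.82, 6.62 and 6.82 in the mutant atria against 7.53, 7.66 and 7.29 in the control atria (log2 ratio -0.74 ± 0.15, adjusted p = 0.0113). Of the chamber muscle genes, the atrial gene Sln lay at 14.59 to 14.62 in control atria and 4.59 to 6.71 in ventricles, and the ventricular gene Myl2 at 10.50 to 11.66 in control atria and 15.00 to 15.02 in ventricles. The 3 control atria also carried transcripts typical of hepatocytes: 15 of 15 such genes lay above the background level there (defined below) against 5 of 15 in mutant atria and 1 of 15 in ventricles. Of all probe sets, 65.2% lay above that level in control atria, 64.2% in mutant atria and 56.5% in ventricles. As a measure of RNA quality, the 3' probe set of Gapdh exceeded its 5' probe set on the log2 scale by 0.345 to 0.364 in the atria of controls, by 0.214 to 0.304 in those of mutants and by 0.153 to 0.227 in ventricles, and the part of this in the results was not tested. Xist was high and Y-linked genes low in 1 mutant atrium and in all 3 ventricles. Control atrium replicate 3 carried both (Xist 10.91, mean of the Y-linked genes 8.33), as did replicate 1 at a lower Y-linked level (12.73 and 5.22). Control atrium replicate 2 had a Y-linked mean of 8.81 with Xist at 8.55, against Xist of 6.73 and 6.48 in mutant atrium replicates 2 and 3.

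Mutant and control right atria were compared to see how RNA of the atrial wall differs when COUP-TFII is deleted in its muscle cells. Every one of the 17 probe sets was lower in the mutant atria and passed the threshold, where 8.05% of all probe sets were called lower and 5.86% higher (13.9% in all). The median ratio was -1.61, so that the typical mutant level was 32.8% of the control level. The median over all probe sets was 0.02. Of the 17, 13 fell by at least 2-fold, as did 1.08% of all probe sets. In 17 of 17 the 3 mutant arrays lay below the 3 control atria without overlap, against 17.4% of all probe sets. All 17 passed with any 1 of the 9 arrays left out, and 1 of 17 (Bnc1) with the level of hepatocyte transcripts as a covariate.

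**Figure D1:**
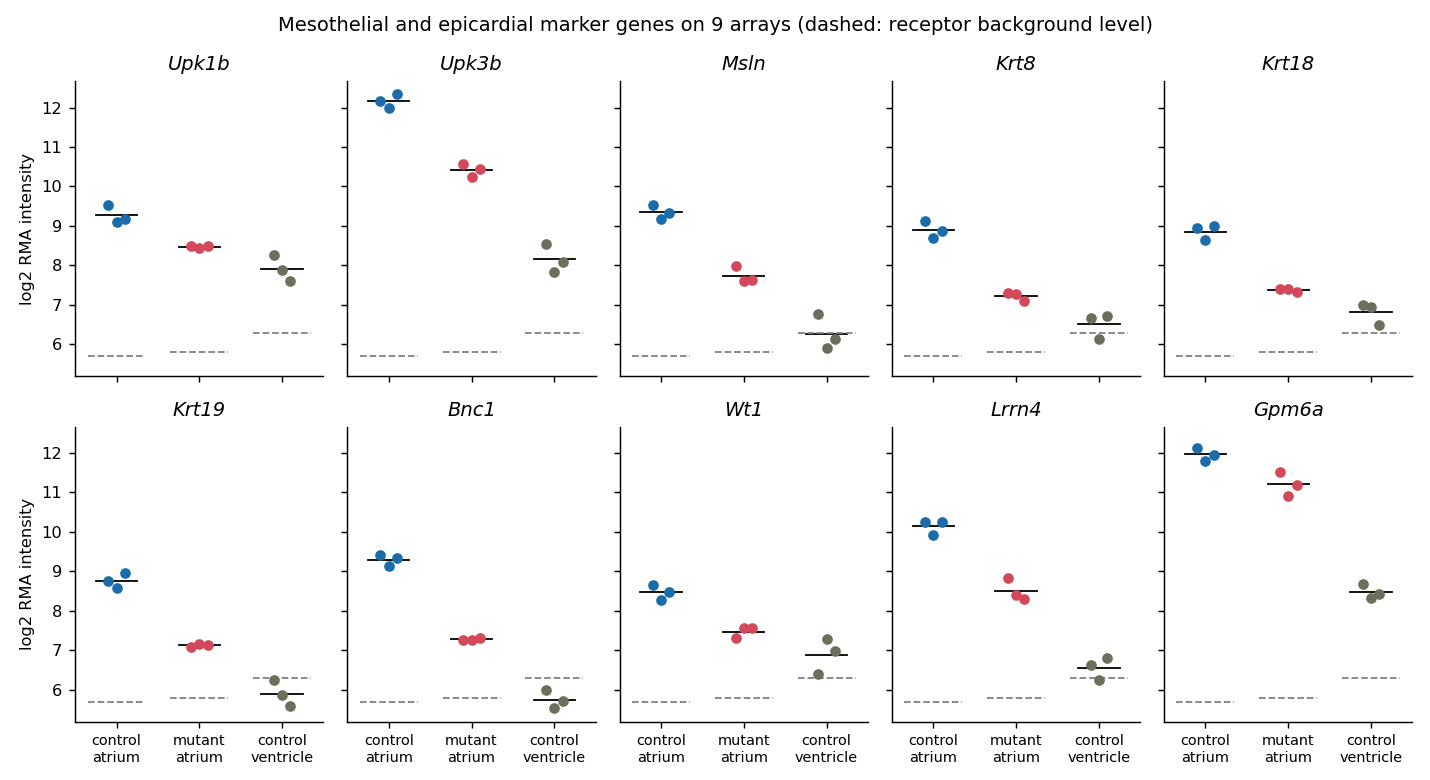
Log2 RMA intensity of each of the 10 marker genes (probe set with the highest mean) in the 3 control atria, 3 mutant atria and 3 control ventricles. Each point is an array, the black bar is the group mean, and the dashed line is the group's background level, the mean 95th percentile of receptor genes (5.69 in control atria, 5.80 in mutant atria, 6.29 in ventricles). In each panel the control atria are highest, the mutant atria intermediate and the ventricles lowest, with no overlap of arrays.

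Uroplakins are membrane proteins first known from the plaques of the bladder lining, and mesothelial cells carry some of them. Upk3b, the type III uroplakin of mesothelium, gave 12.16, 12.00 and 12.33 in the control atria, 10.56, 10.23 and 10.44 in the mutant atria and 8.53, 7.83 and 8.09 in the ventricles. The 3 groups stood well apart, and the spread within a group (SD 0.16 to 0.35) was far smaller than the steps between them. Mutant atria were 3.37-fold below control atria (-1.75 ± 0.17, adjusted p = 0.000153), and the second probe set gave nearly the same ratio (-1.70 ± 0.14). Upk1b is a tetraspanin that forms heterodimers with type III uroplakins. On its brightest probe set, 1439760_x_at, Upk1b gave 9.52, 9.08 and 9.18 in control atria, 8.48, 8.43 and 8.48 in mutant atria and 8.27, 7.88 and 7.60 in ventricles. That probe set had the smallest fall of the 4 for this gene (-0.80 ± 0.16, adjusted p = 0.0101), while the other 3 were 2.57-fold to 2.82-fold lower. Probe sets whose name ends in _x_at can hold probes that match other transcripts, and the ventricle values of the 4 also disagreed, from -1.35 ± 0.16 for 1439760_x_at to -3.41 ± 0.16 for 1435831_at against control atria.

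Msln encodes mesothelin, a surface glycoprotein anchored by a lipid that binds the mucin MUC16. It gave 9.53, 9.17 and 9.33 in control atria, 7.98, 7.61 and 7.62 in mutant atria and 6.76, 5.91 and 6.13 in ventricles. The mutant arrays were lower than every control atrium, by 3.05-fold on average (-1.61 ± 0.20, adjusted p = 0.000825). Its binding partner Muc16, which is not among the 10 genes and was named after its value was seen, also fell (-1.09 ± 0.16, adjusted p = 0.00238).

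Keratins 8 and 18 assemble as an obligate pair of a type II and a type I chain in simple epithelia, and keratin 19 is a further type I chain. Krt8 gave 9.13, 8.69 and 8.87 in control atria and 7.29, 7.27 and 7.09 in mutant atria on its brightest probe set. Krt18 gave 8.95, 8.63 and 8.99 in control atria and 7.40, 7.39 and 7.31 in mutant atria. The mutant arrays of both genes lay close together and well below the controls, with ratios of -1.68 ± 0.16 (adjusted p = 0.000169) for Krt8 and -1.49 ± 0.14 (adjusted p = 0.000137) for Krt18. The other 2 probe sets of Krt8 fell by 1.79 and 1.89 on the log2 scale. The within-array difference Krt8 minus Krt18 changed by -0.19 from control to mutant atria (exact permutation test, 2-sided, p = 0.2, n = 3 and 3), which is near the SD of 0.15 between control arrays. Krt19 gave 8.76, 8.57 and 8.96 in control atria, 7.08, 7.14 and 7.14 in mutant atria and 6.24, 5.86 and 5.59 in ventricles, a mutant ratio of -1.64 ± 0.15 (adjusted p = 0.000137).

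Both transcription factors fell. Bnc1, a zinc finger factor of mesothelium, keratinocytes and germ cells, gave 9.42, 9.13 and 9.33 in control atria, 7.26, 7.26 and 7.31 in mutant atria and 5.98, 5.52 and 5.72 in ventricles. Its mutant arrays were almost equal and 4.05-fold below the controls (-2.02 ± 0.12, adjusted p = 7.74e-06), the largest fall among the 17 probe sets. Wt1, the zinc finger factor that marks the epicardium from the embryo on and is also found in some endothelial cells, gave 8.65, 8.27 and 8.47 in control atria, 7.30, 7.55 and 7.55 in mutant atria and 6.39, 7.27 and 6.98 in ventricles. The mutant and control arrays of Wt1 did not overlap, and the ratio was -0.99 ± 0.20 (adjusted p = 0.00954). The within-array difference Wt1 minus Bnc1 was 1.02 higher in mutant than in control atria, with no overlap of arrays (exact permutation test, 2-sided, p = 0.1, the smallest that 3 against 3 arrays allow). Likewise Upk3b minus Wt1 was lower by 0.76 in mutant atria (exact p = 0.1). Over the 8 such comparisons (4 pairs of members, mutant atria and ventricles each against control atria) the smallest adjusted p was 0.133, and none could have passed the threshold at this number of arrays.

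Lrrn4, a leucine-rich repeat membrane protein first described in neurons and abundant in mesothelium, gave 10.25, 9.93 and 10.24 in control atria, 8.82, 8.41 and 8.30 in mutant atria and 6.62, 6.23 and 6.79 in ventricles. Mutant atria were 3.10-fold below control atria (-1.63 ± 0.17, adjusted p = 0.000277). Gpm6a, a membrane glycoprotein of the proteolipid family found in neurons and mesothelium, gave 12.13, 11.80 and 11.96 in control atria, 11.51, 10.91 and 11.19 in mutant atria and 8.68, 8.31 and 8.42 in ventricles. Its mutant arrays were lower than the controls by the smallest amount of the 17 probe sets, 1.69-fold (-0.76 ± 0.16, 95% confidence interval -1.10 to -0.41, adjusted p = 0.0112), and the second probe set gave -0.79 ± 0.16. The interval does not meet that of Bnc1 (-2.28 to -1.76). Of 9 neuron and Schwann cell genes measured, 1 rose (Uchl1, a ubiquitin hydrolase of neurons, 1.88 ± 0.19) and none fell, where 6.92% of all genes were called higher and 8.99% lower. Only 6 of the 9 lay above the background level in the atria of either genotype, near the share of all probe sets (65.2% in control and 64.2% in mutant atria). The Gpm6a paralogue Gpm6b differed by 0.49 ± 0.16 (adjusted p = 0.0677).

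**Figure D2:**
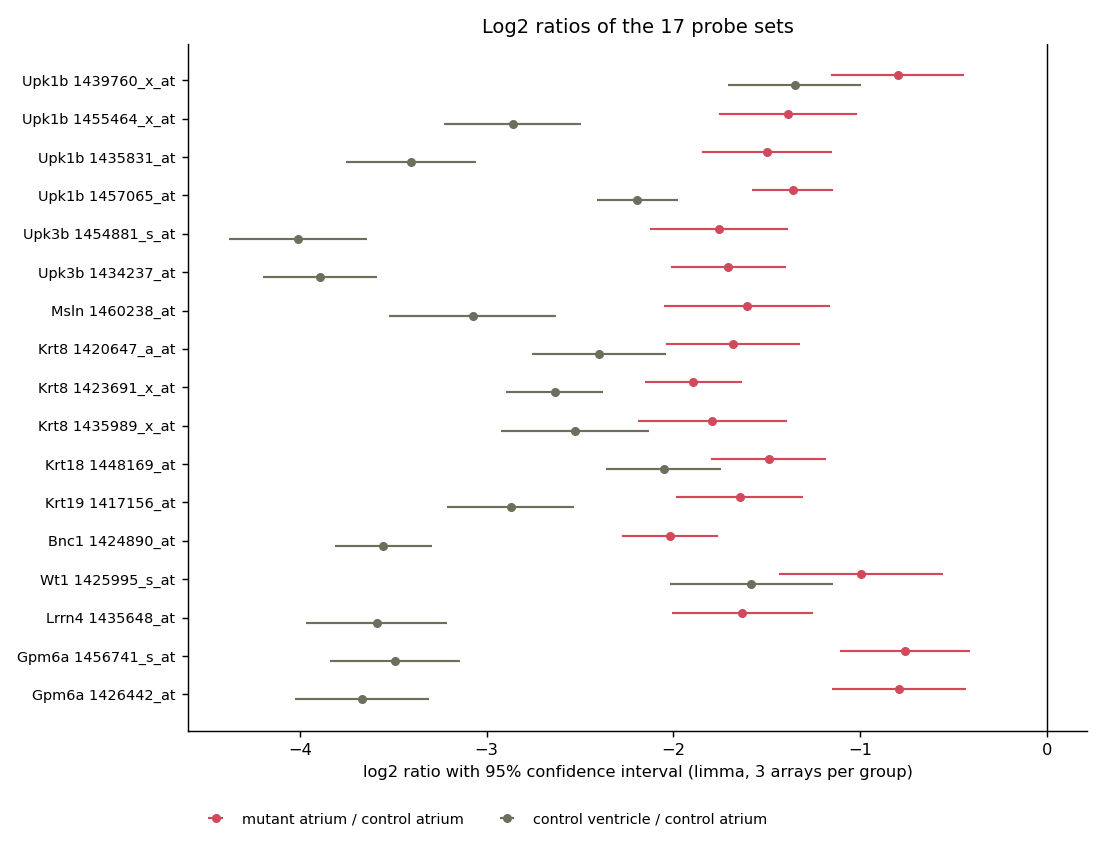
Log2 ratios of the 17 probe sets with 95% confidence intervals from limma, for mutant atrium (red) and control ventricle (grey) against control atrium. All intervals lie below 0; the mutant ratios run from -2.02 (Bnc1) to -0.76 (Gpm6a) and the ventricle ratios from -4.01 (Upk3b) to -1.35 (Upk1b 1439760_x_at).

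Without the mutation, these genes differed between the chambers. All 17 probe sets were lower in the ventricle, by at least 2-fold in each case, where 21.5% of all probe sets were called lower and 25.7% higher (47.2% in all), and 4% were lower by at least 2-fold. The median ratio was -2.87, or 13.7% of the atrial level, and the largest differences were 16.1-fold and 14.9-fold for the probe sets of Upk3b (-4.01 ± 0.17 and -3.90 ± 0.14), 12.7-fold for the second Gpm6a probe set (-3.67 ± 0.16), 12-fold for Lrrn4 (-3.59 ± 0.17) and 11.7-fold for Bnc1 (-3.55 ± 0.12). The smallest were 2.55-fold for Upk1b 1439760_x_at and 2.99-fold for Wt1 (-1.58 ± 0.20, adjusted p = 0.000155). To judge which levels are measurable, the 95th percentile of 83 probe sets of olfactory, vomeronasal and taste receptor genes, which the heart is not known to express, was taken as the background level of each array. In the atria of both genotypes all 17 probe sets were above it, as were 65.2% of all probe sets in control and 64.2% in mutant atria. In the ventricles 10 of 17 were above it, near the share of all probe sets (56.5%). The other 7 were near background, namely those of Msln, Krt19 and Bnc1, 2 of Upk1b and 2 of Krt8. For these 7 the ratio may understate the difference. Genes of some other cell types were lower in the ventricle as well, where 23.1% of all genes were called lower and 28.2% higher. These were 9 of 12 fibroblast genes (1 higher, median -0.61), 6 of 10 endothelial genes (1 higher, median -0.81) and 15 of 15 hepatocyte genes (median -3.45). Of 8 genes of bladder lining and stratified epithelium 5 were higher and 0 lower, and of 12 general epithelial genes 4 were higher and 3 lower. Of 9 neuron and Schwann cell genes, and of 6 adipocyte genes, 2 were higher and 1 lower. The part of these cell types in the marker values was not tested.

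Ventricles held still less of each marker than mutant atria. All 17 probe sets were higher in mutant atria than in ventricles past the threshold, where 13.4% of all probe sets were called higher and 14.1% lower (27.5% in all), with a median ratio of 1.47. Each ventricle lay below each mutant atrium and each mutant atrium below each control atrium in 17 of 17 probe sets, an order that 5.72% of all probe sets showed. Gpm6a was 6.65-fold higher in mutant atria than in ventricles (2.73 ± 0.16), Upk3b 4.78-fold (2.26 ± 0.17) and Lrrn4 3.89-fold (1.96 ± 0.17). Krt8 (0.72 ± 0.16, adjusted p = 0.0084) and Krt18 (0.56 ± 0.14, adjusted p = 0.0132) were nearer to the ventricle. The smallest differences, with that of Krt18, were those of Upk1b 1439760_x_at (0.55 ± 0.16, adjusted p = 0.0278) and Wt1 (0.59 ± 0.20, adjusted p = 0.04997). The call for Wt1 rests on the settings: it was lost in 16 of 20 alternatives, with adjusted p from 0.0141 to 0.171. The Wt1 difference was 0.34 without ventricle replicate 1 (adjusted p = 0.112) and 0.78 without ventricle replicate 2 (adjusted p = 0.0141). The call for Upk1b 1439760_x_at was lost without any 1 of the mutant atria (adjusted p = 0.067, 0.0596 and 0.0737) and without ventricle replicate 2 (0.0737) or 3 (0.085). The other Upk1b probe sets were higher in mutant atria by 0.83 (1457065_at), 1.48 (1455464_x_at) and 1.91 (1435831_at). Each of them kept its call in 19 of 19 alternatives. The 3 comparisons share their arrays, so they are not separate evidence.

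The genes differed in where the mutant atrium lay between both control tissues. Expressed as a share of the log2 gap between control atrium and ventricle, the fall in mutant atria was 21.7% for Gpm6a (17.4% to 26.1% with any 1 array left out) and 21.6% for its second probe set. It was 43.7% for Upk3b (41.5% to 45.5%) and 45.4% for Lrrn4 (42.5% to 49.7%). It was 70% for Krt8 (67% to 75.9%), 72.6% for Krt18 (69.5% to 78.7%) and 62.8% for Wt1 (55.9% to 74.5%). The Krt8 ventricle mean was only 0.21 above background, with 2 of 3 arrays above it. The other 2 Krt8 probe sets (71.8% and 70.9%) were near background there, so the Krt8 shares may be overstated. Bnc1 (56.8%), Krt19 (57.3%) and Msln (52.2%) lay between, with ventricle levels near background, so that their gap may be understated and their share overstated. The probe sets of Upk1b ranged from 43.9% to 62%. Of these, 1435831_at (43.9%) and 1455464_x_at (48.4%) were near background in ventricles, and 1457065_at (62%) was only 0.11 above it. Ventricle means of Lrrn4 and Wt1 were 0.26 and 0.59 above background, with 2 of 3 arrays above it for Wt1. Such shares may be overstated too. The differences between genes in this share were not tested.

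**Figure D3:**
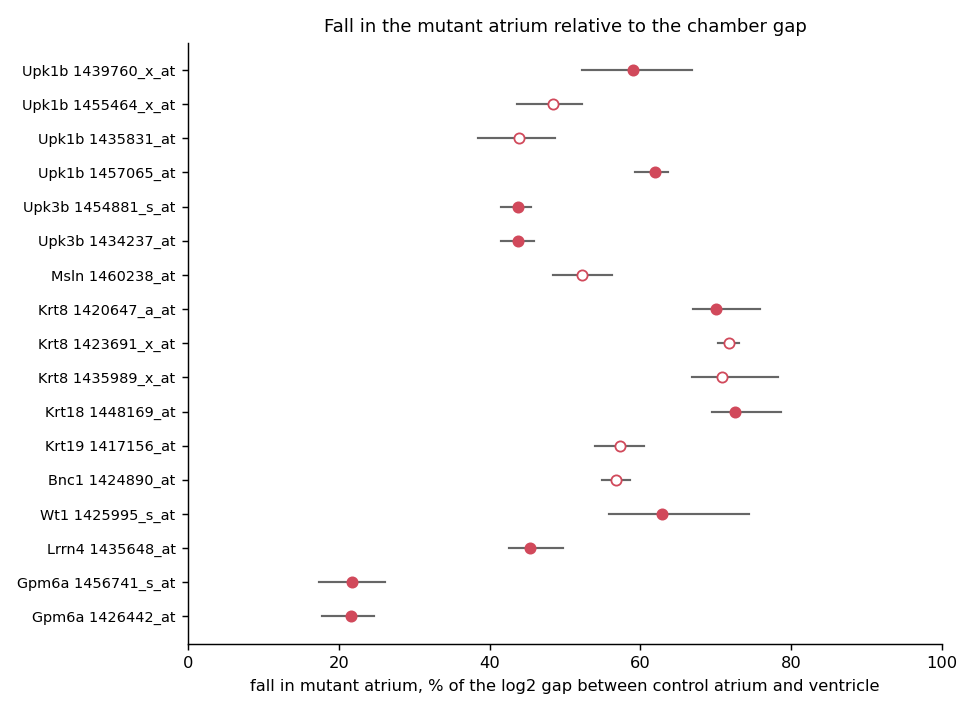
Fall of each probe set in mutant atria as a percentage of the log2 gap between control atria and control ventricles. Filled points have a ventricle level above background, open points one near background, and bars give the range with any 1 of the 9 arrays left out. The 2 Gpm6a probe sets lie at 21.7% and 21.6% and the Krt8 and Krt18 probe sets between 70% and 72.6%.

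The control atria in which the markers were high also held the hepatocyte transcripts. All 15 hepatocyte genes were lower in mutant than in control atria, with a median ratio of -2.97, and their summed level on the log2 scale was 11.97 to 14.28 in the control atria, against 9.85 to 9.99 in the mutant group and 9.19 to 9.35 in the ventricle. Alb, the serum albumin gene, gave 12.25, 10.81 and 8.73 in control atria and 4.95, 4.68 and 5.22 in mutant atria. The mean of the 10 marker genes was 9.85, 9.53 and 9.77 in replicates 1, 2 and 3, while the mean of the hepatocyte genes was 9.75, 8.91 and 7.27. Replicate 1, with the most hepatocyte RNA, had the highest value in 13 of 17 member probe sets, and replicate 2 had the lowest in 15 of 17. Replicate 1 was also highest in 11 of 17 among mutant atria and in 12 of 17 among ventricles. Replicate 2 was lowest there in 11 and 10 of 17. Upk1b, Krt8, Upk3b and Gpm6a enter these counts with more than 1 probe set, and no count over all probe sets is given beside them. After the group means were taken out, a marker's correlation with the hepatocyte mean ran from -0.28 (Krt19) to 0.38 (Upk1b). Without control atrium replicate 1, all 17 passed in mutant against control atria. In mutant atria the marker means were 8.22 to 8.37 and the hepatocyte means 5.37 to 5.39, against 6.79 to 7.11 and 5.10 to 5.26 in ventricles, with no overlap in either. Between these groups 2 of 15 hepatocyte genes were called, both higher in mutant atria. This is near the share of all probe sets called higher (13.4%, with 14.1% lower). The 2 were Ahsg, a secreted liver glycoprotein (2.93 ± 0.13, adjusted p = 7.07e-07), and the cytochrome Cyp2e1 (1.79 ± 0.34, adjusted p = 0.00381). With the hepatocyte mean as a covariate in limma, all 17 ratios stayed below 0 (-1.98 to -0.40) but only Bnc1 passed (adjusted p = 0.044). In that fit 12 of 17 had an unadjusted p under 0.05, a count given without the share of all probe sets. Of the variance of that covariate, 87.7% lies between the groups, and the median SE of the 17 ratios rose from 0.159 to 0.384. The fat cell gene Adipoq was also higher in control atria (7.49, 5.52 and 8.19 against 4.23 to 5.17 in mutant atria), while 2 of the other adipocyte genes, Fabp4 (0.46 ± 0.10, adjusted p = 0.0124) and Ucp1 (0.34 ± 0.09, adjusted p = 0.0357), were higher in mutant atria. Ucp1 lay under the background level in every group, and Fabp4 was higher still in ventricles (13.69 to 13.84 against 13.22 to 13.55 in mutant atria). Whether adjoining tissue on the samples had a part in the marker values was not tested.

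**Figure D4:**
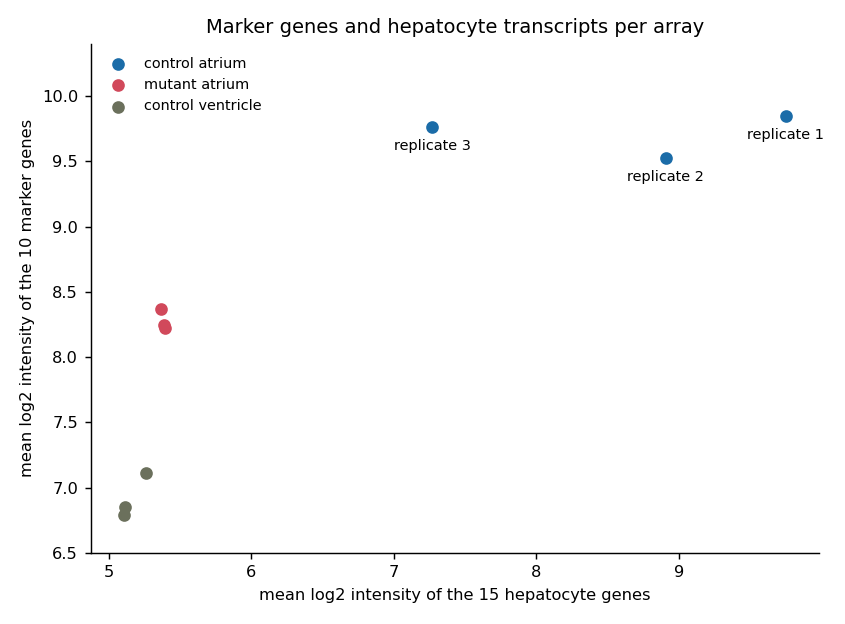
Mean log2 intensity of the 10 marker genes against that of the 15 hepatocyte genes, a point per array, coloured by group. The 3 control atria spread from 7.27 to 9.75 in hepatocyte genes and from 9.53 to 9.85 in the markers, and the mutant atria lie above the ventricles in both (5.37 to 5.39 against 5.10 to 5.26 in hepatocyte genes).

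Many further genes known from mesothelium or epicardium were lower too. Of 18 such genes, 11 were lower in mutant atria and 0 higher, with 7 not called, where 8.99% of all genes were called lower and 6.92% higher (a gene being represented by its brightest probe set). Their median was -0.72, against 0.03 over all genes. The 4 with the smallest p were Dmkn, a secreted epithelial protein (-2.47 ± 0.17, adjusted p = 2.04e-05), the tight junction claudin Cldn15 (-1.21 ± 0.10), the annexin Anxa8 (-1.10 ± 0.10) and Nkain4, which binds the sodium pump (-1.05 ± 0.10). A further 4 of the 18, known from the developing epicardium or its derivatives, were named after their values were seen. Aldh1a2, which makes retinoic acid, differed by -0.94 ± 0.23 (adjusted p = 0.0245) and the T-box factor Tbx18 by -0.68 ± 0.19 (adjusted p = 0.0428), while Tcf21, a factor of epicardium and fibroblasts, stood at 10.83, 10.18 and 10.42 in mutant and 10.23, 10.06 and 10.18 in control atria (0.32 ± 0.14, adjusted p = 0.165). Aldh1a1 differed by 0.06 ± 0.15 (adjusted p = 0.813). In ventricles against control atria 15 of the 18 were lower and 1 higher (23.1% of all genes were called lower and 28.2% higher), Tcf21 and Aldh1a1 among the lower ones. With the hepatocyte covariate 0 of 18 passed in limma for mutant against control atria (6 at an unadjusted p under 0.05, given without the share of all genes).

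**Figure D5:**
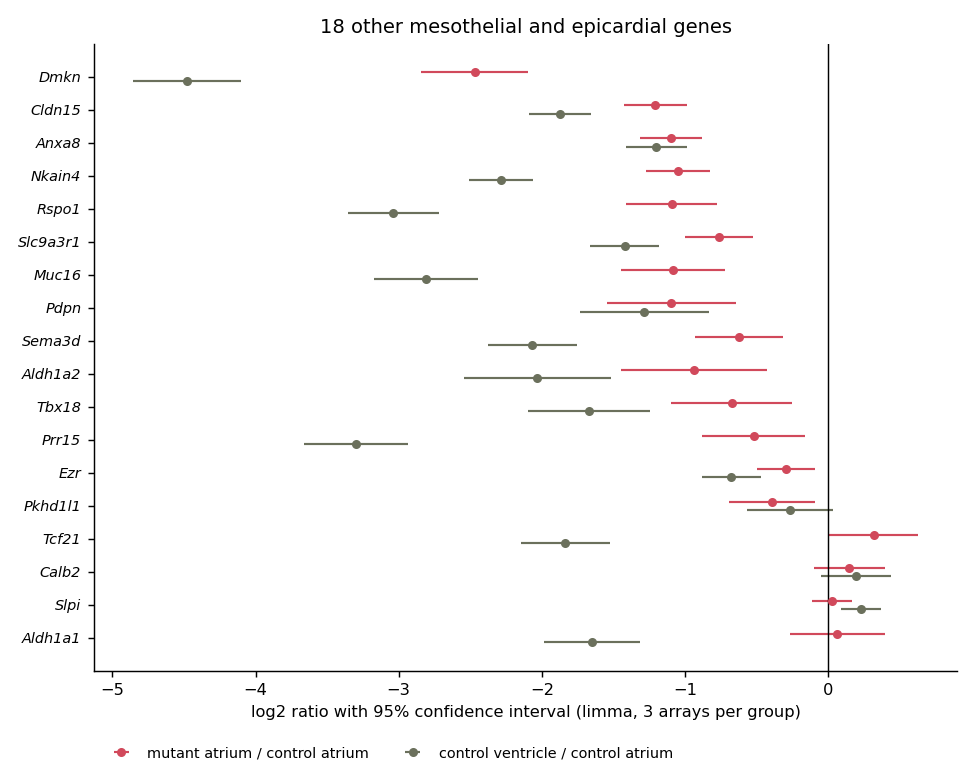
Log2 ratios with 95% confidence intervals from limma for 18 further mesothelial and epicardial genes, mutant atrium (red) and control ventricle (grey) against control atrium, sorted by p in the mutant comparison. Dmkn lies lowest in both (-2.47 and -4.48), and the mutant ratios of Tcf21, Calb2, Slpi and Aldh1a1 lie at or above 0 without passing the threshold.

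Of 12 general epithelial genes, 3 were lower in mutant atria and 0 higher (median 0.08), where 8.99% of all genes were called lower and 6.92% higher. The 3 were Krt7, a simple-epithelial keratin that gave 9.13, 9.35 and 9.20 in control atria and 6.55, 6.33 and 6.55 in mutant atria (-2.75 ± 0.08, adjusted p = 1.02e-07), the junction protein Ocln (-0.60 ± 0.12) and Cdh1 (-0.39 ± 0.08), which lay under the background level in every group (3.66 to 4.22). Epcam, a surface protein of most glandular epithelia but not of mesothelium, stood at 6.82 to 7.11 in control atria and 7.00 to 7.12 in mutant atria. Of 8 genes of bladder lining and stratified epithelium, limma called 0 in mutant against control atria (1 at an unadjusted p under 0.05), with Upk1a at 0.09 ± 0.08, and of 10 lung epithelial genes it called 0 (3 at an unadjusted p under 0.05). These unadjusted counts are given without the share of all genes. Fibroblast genes rose in 2 of 12 cases (Thy1 0.69 ± 0.10, Lum 0.40 ± 0.10) and fell in 0, against 6.92% and 8.99% of all genes. Of 10 endothelial genes 1 was lower, the angiopoietin receptor Tek (-0.61 ± 0.13), which is near the share of all genes. Of 6 adipocyte genes 2 were higher and 1 lower, and of 8 chamber muscle genes 3 were higher and 1 lower.

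Across the 9 arrays, each marker followed the mean of the other 9, with Pearson's r from 0.899 (Wt1) to 0.998 (Bnc1). These values mostly describe the steps between the groups. After the group means were taken out, r was 0.386 to 0.824 for 9 of the genes and -0.54 for Wt1, which was lowest in the ventricle in which 12 of 17 probe sets were highest. Among 12776 other genes above background in control atria, the 10 whose level was most like the mean of the markers were Crlf3, Stk26, Dipk2a, Igfbp6, Cggbp1, Sec61b, Hnrnpf, Cybrd1, Dmkn and Zfp719 (r = 0.992 to 0.998 over 9 arrays). They differed widely in size of change. In mutant atria the kinase Stk26 (-1.64 ± 0.12) and Igfbp6, which binds insulin-like growth factors (-1.58 ± 0.16), had ratios within the range of the markers. Cybrd1, an iron reductase of the cell surface (-2.34 ± 0.15), lay below that of Bnc1. The ratios of Cggbp1 (-0.25 ± 0.06) and Sec61b (-0.26 ± 0.06) were nearer to 0. A rank correlation kept 1 of the 10, and 476 genes had r over 0.95, so these names are a short sample of many with such a pattern.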

How the data were processed

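The 9 arrays were of 3 groups (3 mutant right atria, 3 control right atria, 3 control ventricles). The authors deposited an intensity for each probe set on a linear scale, summarised with RMA, per the submitters' processing notes; its version and the genome build are not given in the sources used here. Their log2 was taken, with no further normalisation. Of 45101 probe sets, 64 controls, 932 with several genes and 9160 without a name were left out, which left 34945. Names come from the platform annotation. All arrays entered a single limma 3.58.1 fit (lmFit and eBayes, R 4.3.3, 6 residual and 3.83 prior degrees of freedom) with a mean per group. A simulation recovered 75 of 100 probe sets changed 1.5-fold and 99 of 100 changed 2-fold in the mutant comparison over 34945 probe sets, with 4 false calls. The members and lists were chosen with earlier results of these data known. Named genes are the 10 members, up to 4 genes per list with the smallest p in the mutant comparison, the 10 genes nearest in pattern, and Nr2f2; others were named after their values were seen. Some list genes were not analysed here. The fit was repeated with a replicate block, 1 probe set per gene, quantile normalisation, median centring, a variance trend, a filter on dim probe sets, array weights, Y-linked or hepatocyte level as a covariate, a fit of only the groups compared, a stricter threshold, and each array left out. The number of arrays limits the precision. P-values measure only the spread between these arrays.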

Additional observations from a re-analysis of the deposited data

How the results depend on the processing

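The member probe sets called lower in mutant atria numbered 17 under every alternative except an adjusted p of 0.01 (14), the hepatocyte covariate (1) and the fit of 1 probe set per gene (10 of 10). In ventricles against control atria 17 were called except with the hepatocyte covariate (15) and 1 probe set per gene (10 of 10). Against ventricle 13 (adjusted p of 0.01) to 17 were called higher, and 10 of 10 with 1 probe set per gene. Of the 18 other mesothelial genes 8 to 14 were called lower in mutant atria, and 0 with the hepatocyte covariate. No ratio of the 17 changed sign in any alternative. Over all probe sets the mutant comparison called 4861, but 1958 at an adjusted p of 0.01, 122 with the hepatocyte covariate and 2714 to 4645 with an array left out. The ventricle comparison called 16492, but 10405 at 0.01 and 1604 with the covariate, and mutant against ventricle 9612, but 5485 at 0.01. The median ventricle ratio of the 10 genes was -2.97, and -3.18 to -2.86 with an array left out. With the array median as background, 6 member probe sets lay above it in ventricles. With Spearman's correlation 1 of the 10 genes nearest in pattern stayed. With the replicate number as a block, 17, 17 and 16 member probe sets were called in the 3 comparisons, Wt1 being lost against ventricle (adjusted p = 0.0641), and 4226 of all in the mutant comparison. Same-numbered mutant and control atria correlated at 0.111, 0.0664 and 0.0276 in their deviations. Same-numbered mutant atria and ventricles correlated at -0.0957, -0.0471 and -0.0255. Among the member probe sets, replicate 1 was most often the highest and replicate 2 most often the lowest in each group. The block lowered the median SE of the 17 ratios from 0.159 to 0.123. The labels do not say whether the numbers pair the samples. Median centring turned the split of ventricle calls from 8971 higher and 7521 lower to 12300 and 6250. The causes of these changes were not tested.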
